A study of Homo sapiens with 8 samples.

Results

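The genes described here are 10 apoptosis regulators of the BCL2 family: BCL2, BCL2L1, MCL1, BAX, BAK1, BBC3, PMAIP1, BID, BIK and BCL2L11. They were taken by symbol from the 58870 genes of a count table, by a rule that uses no measured value, though with earlier results of these data known, and each symbol matched 1 gene. The table covers bulk RNA sequencing of 8 samples of CFPAC-1, a human cell line derived from a ductal pancreatic cancer. In 4 of them the cells carried an empty vector, and in the other 4 an ADRA2A transgene, which encodes the alpha-2A adrenergic receptor, a Gi-coupled receptor for adrenaline and noradrenaline. All 8 were grown for 72 hours in IMDM with serum and antibiotics and received no drug. The labels name neither the promoter of the transgene nor whether each line was a clone or a pool, and they do not say whether the 4 samples of a group were separate cultures, so the p-values measure only the spread between these samples.

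BCL2 family proteins decide at the mitochondrial outer membrane whether a cell starts the intrinsic pathway of apoptosis. BAX and BAK1 are the effectors that form the membrane pore and let cytochrome c out. BCL2, BCL2L1 (which encodes BCL-XL) and MCL1 hold the effectors and their activators in check. The BH3-only proteins BBC3 (PUMA), PMAIP1 (NOXA), BID, BIK and BCL2L11 (BIM) report stress to the other members by inserting their BH3 helix into a groove on them. In pancreatic ductal cancers BCL-XL and MCL1 are the guardians most often studied as drug targets. Much of this regulation acts on the proteins, through splicing, cleavage, phosphorylation and degradation, and counts per gene do not show it.

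The feature that the 10 genes share is the BH3 core, and its coding bases are shown to let the genes be compared. The genes are family members by their known BH3 region, so a match in each was foreseeable. The core was searched in the protein translated from the canonical transcript of each gene in GENCODE release 44 as a leucine, then 3 residues of any kind, then glycine, alanine or serine, then aspartate. Each of the 10 proteins held it, against 34.6% of 20046 coding transcripts, since the pattern is short. A match alone therefore does not place a gene in the family. BID held it at residues 25 to 30 as well, and the other proteins at a single place. The 18 bases below run 5′ to 3′, and the capitals mark the leucine codon at the start and the codons of the small residue and the aspartate at the end.
BCL2: CTCcgccaggccGGCGAC
BCL2L1: CTGagggaggcaGGCGAC
MCL1: TTAcgacgggttGGGGAT
BAX: CTCaagcgcatcGGGGAC
BAK1: CTCgccatcatcGGGGAC
BBC3: CTGcggcggatgGCGGAC
PMAIP1: CTCaggagatttGGAGAC
BID: CTCgcccaggtcGGGGAC
BIK: CTGgcctgcatcGGGGAC
BCL2L11: TTGcggcgtattGGAGAC
The small residue was alanine in BBC3 and glycine in the others. The core lay at residues 97 to 102 of BCL2, 90 to 95 of BCL2L1, 63 to 68 of BAX, 29 to 34 of the 54-residue PMAIP1 and 152 to 157 of the 198-residue BCL2L11. The BID stretch printed is that at residues 90 to 95.

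Library totals lay between 14427035 and 17528915 counts. ADRA2A itself had 0 counts in all 4 empty-vector libraries and 112, 142, 154 and 172 counts in ADRA2A replicates 1 to 4. The cells carried epithelial transcripts: 8 epithelial markers summed to between 11983 and 12556 CPM (counts relative to library size, scaled with TMM factors) in the empty-vector libraries and between 11929 and 12983 CPM in the ADRA2A libraries. The sums hide changes of single markers. Of the 7 that were tested, 3 were higher in the ADRA2A cells, MUC1 most (log2 fold change 0.79), and 3 lower, KRT7 most (-0.43). Of all genes tested, 21.6% were higher and 21.1% lower. CFTR, the chloride channel of pancreatic duct cells, was at 0.708 ± 0.309 CPM (SD, n = 4) in the empty-vector cells, too low to be tested. Markers of 7 fibroblast and 4 endothelial genes summed to at most 3.94 and 3.35 CPM in a library. Of 6 blood cell markers CD3E and HBB were at 0, and the list summed to between 89.9 and 121 CPM, nearly all of it CD68, a lysosomal protein gene that rose from 91.6 to 114 CPM. The part of CD68-bearing cells in the results was not tested.

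Of the 10 BCL2 family genes, all of which passed the filter, 4 fell and 1 rose in the ADRA2A cells. BCL2L1, BAX, PMAIP1 and BID fell by between 18% and 22.9%, and BCL2L11 rose by 44.2%. BCL2, MCL1, BAK1, BBC3 and BIK did not pass the test (edgeR quasi-likelihood test; threshold 0.05 on p-values adjusted by Benjamini-Hochberg over 14785 genes). The share of the 10 genes that passed was near that of all genes tested, of which 42.7% passed, 21.6% as higher and 21.1% as lower. For 6 of the 10 genes no library of 1 group lay within the range of the other group, against 39.2% of all genes tested. The median log2 fold change of the 10 genes was -0.19, against 0.00 over all genes tested. In bulk RNA a lower level in every cell and a loss of transcript in part of the cells cannot be told apart.

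**Figure D1:**
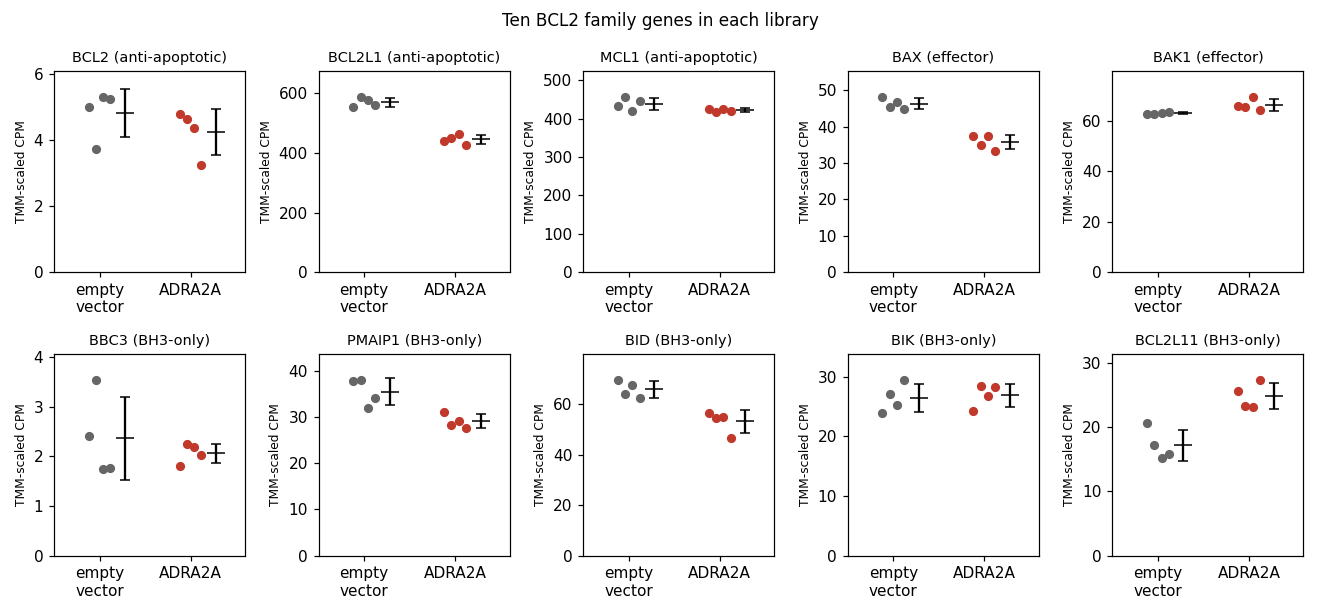
TMM-scaled CPM (vertical axis, from 0) of each of the 10 genes in the 4 empty-vector libraries (grey) and the 4 ADRA2A libraries (red), with the mean and SD of each group as black bars. BCL2L1, BAX, PMAIP1 and BID were lower and BCL2L11 higher in every ADRA2A library than in any empty-vector library.

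Among the anti-apoptotic genes BCL2L1 changed. BCL2L1 (ENSG00000171552.13; GRCh38 chromosome 20, 31664452 to 31723989, minus strand) had 553, 587, 577 and 560 CPM in empty-vector replicates 1 to 4 and 439, 451, 463 and 427 CPM in ADRA2A replicates 1 to 4. All 4 ADRA2A libraries lay below all 4 empty-vector libraries, by far more than the spread within either group. The level fell by 21.8%, or by 0.35 ± 0.03 (SE) on the log2 scale (edgeR adjusted p = 5.18e-08). ABALON, an antisense gene that shares 1735 exonic bases with BCL2L1, was at 0.12 CPM on average. BCL2L1 also yields a short pro-apoptotic splice form, BCL-XS, and the counts do not separate the forms.

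MCL1, whose protein has a short life and must be made continually, was nearly level. MCL1 (ENSG00000143384.13; chromosome 1, 150560895 to 150579738, minus strand) had 433, 456, 420 and 447 CPM in the empty-vector libraries and 426, 416, 425 and 420 CPM in the ADRA2A libraries. The groups overlapped, and the log2 fold change was -0.06, with a 95% interval of -0.12 to 0.01 (edgeR adjusted p = 0.18). BCL2 (ENSG00000171791.13; chromosome 18, 63123346 to 63320128, minus strand), the founding gene of the family, was scarce, with 51 to 91 counts per library. It had 4.98, 3.73, 5.29 and 5.24 CPM in the empty-vector libraries and 4.78, 4.62, 4.35 and 3.23 CPM in the ADRA2A libraries. The groups overlapped, and the 95% interval of the log2 fold change, -0.54 to 0.16, allowed changes in either direction (edgeR adjusted p = 0.396).

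The effectors differed from each other. BAX (ENSG00000087088.20; chromosome 19, 48954815 to 48961798, plus strand) had 48.1, 45.5, 46.8 and 44.8 CPM in the empty-vector libraries and 37.3, 35, 37.3 and 33.3 CPM in the ADRA2A libraries. No ADRA2A library reached the lowest empty-vector library. BAX fell by 22.9%, or by 0.37 ± 0.05 (SE) on the log2 scale (edgeR adjusted p = 1.34e-05). BAK1 (ENSG00000030110.13; chromosome 6, 33572547 to 33580293, minus strand) had 62.5, 62.5, 63.1 and 63.3 CPM in the empty-vector libraries and 65.6, 65.3, 69.3 and 64.1 CPM in the ADRA2A libraries. The groups did not overlap, the empty-vector values having an SD of 0.395 CPM, but the difference was small and did not pass the test. The log2 fold change of BAK1 was 0.07, with a 95% interval of -0.02 to 0.16 (edgeR adjusted p = 0.195).

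Of the 5 BH3-only genes, PMAIP1 and BID fell, BCL2L11 rose, and BBC3 and BIK did not pass the test. BCL2L11 (ENSG00000153094.23; chromosome 2, 111119378 to 111168444, plus strand), whose product BIM binds all anti-apoptotic members and can activate BAX directly, had 20.6, 17.3, 15.2 and 15.8 CPM in the empty-vector libraries. The ADRA2A libraries had 25.7, 23.3, 23.1 and 27.3 CPM, each above the highest empty-vector library. BCL2L11 rose by 0.53 ± 0.09 (SE) on the log2 scale (edgeR adjusted p = 9.69e-05), the largest change of the 10 genes in size. BCL2L11 shares 727 exonic bases with MIR4435-2HG, a long non-coding RNA gene on the opposite strand. MIR4435-2HG went from 82.8 to 70.8 CPM on average, a log2 fold change of -0.22 (edgeR adjusted p = 0.000605). The strand setting of the counting is not given in the sources used here, so reads of the shared bases may have gone to either gene, and their part in the BCL2L11 result was not tested.

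BID (ENSG00000015475.18; chromosome 22, 17734138 to 17774770, minus strand) links death receptors to mitochondria once caspase-8 has cut it. It had 69.4, 63.9, 67.7 and 62.2 CPM in the empty-vector libraries and 56.3, 54.5, 54.8 and 46.6 CPM in the ADRA2A libraries. The groups did not overlap, and ADRA2A replicate 4 lay well below the other ADRA2A libraries. BID fell by 19.4%, or by 0.31 ± 0.06 (SE) on the log2 scale (edgeR adjusted p = 0.000201). PMAIP1 (ENSG00000141682.11; chromosome 18, 59899996 to 59904305, plus strand), whose product NOXA neutralises chiefly MCL1, had 37.8, 38, 32 and 34.1 CPM in the empty-vector libraries and 31.1, 28.3, 29.2 and 27.6 CPM in the ADRA2A libraries. Its groups came close, with less than 1 CPM between empty-vector replicate 3 and ADRA2A replicate 1, but did not overlap. PMAIP1 fell by 18%, or by 0.29 ± 0.07 (SE) on the log2 scale (edgeR adjusted p = 0.00163).

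BIK (ENSG00000100290.3; chromosome 22, 43110750 to 43129712, plus strand), which encodes a BH3-only protein found largely at the endoplasmic reticulum, had 23.9, 27.1, 25.3 and 29.4 CPM in the empty-vector libraries. The ADRA2A libraries had 24.2, 28.5, 26.8 and 28.2 CPM, inside the empty-vector range. Its log2 fold change was 0.03, with a 95% interval of -0.12 to 0.19 (edgeR adjusted p = 0.76). BBC3 (ENSG00000105327.17; chromosome 19, 47220822 to 47232766, minus strand), whose product binds every anti-apoptotic member, was at 2.4, 3.53, 1.74 and 1.77 CPM in the empty-vector libraries. In the ADRA2A libraries BBC3 was at 1.8, 2.24, 2.18 and 2.02 CPM, inside the empty-vector range. BBC3 had 26 to 52 counts per library and did not pass the test (edgeR adjusted p = 0.582). The log2 fold change was -0.18, with a 95% interval of -0.70 to 0.33, and without empty-vector replicate 2, its highest library, the log2 fold change was 0.06.

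ADRA2A replicate 4 was the lowest library of its group for 6 of the 10 genes (BCL2, BCL2L1, BAX, BAK1, PMAIP1 and BID). It was the lowest for 28.3% of all genes tested. This library is named because it had the most such genes, the others having 1 to 4. The 6 genes share its scaling, so the count is a description. ADRA2A replicate 4 also had the highest share of mitochondrially encoded counts, 4.29% against 3.93% to 4.15% in the other 7 libraries. A link between the share and the 6 genes was not tested. Without it the same 5 genes passed the test in the same directions. Across the 8 libraries after removal of the group means, BAX and BID varied together most closely among the 45 pairs of the 10 genes (Pearson r = 0.91, over log2 CPM), and BAX and BIK most oppositely (r = -0.79). These correlations rest on 8 libraries, share each library's scaling and are given as a description.

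Levels were compared between genes per kilobase of exon union. In the empty-vector cells BCL2L1 stood highest at 136 ± 3.78 CPM per kilobase (SD, n = 4), followed by MCL1 at 70.5 ± 2.54. BAK1 at 28.4 ± 0.179 and BIK at 27.8 ± 2.5 CPM per kilobase did not differ beyond their spread. BAX at 17.9 ± 0.568 overlapped with PMAIP1 at 16.2 ± 1.35, and PMAIP1 with BID at 14.9 ± 0.754. BCL2L11 at 2.55 ± 0.358, BBC3 at 0.741 ± 0.263 and BCL2 at 0.381 ± 0.0579 CPM per kilobase formed the low end. In the ADRA2A cells BCL2L1 stood at 106 ± 3.66 and MCL1 at 67.8 ± 0.791 CPM per kilobase. The order in the middle depends on the length used: per kilobase of the longest transcript, BAX stood at 34.1 and BID at 26.4 in the empty-vector cells, and BAX lay above BAK1.

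The balance between family genes can be read as ratios within a library, in which scaling between libraries drops out. BAX over BCL2L1 was 0.132 ± 0.00656 in the empty-vector cells and 0.13 ± 0.00553 in the ADRA2A cells (CPM per kilobase of exon union, SD, n = 4 each). Its libraries overlapped, both genes having fallen by like amounts. BAK1 over BCL2L1 was 0.215, 0.202, 0.207 and 0.215 in the empty-vector libraries and 0.283, 0.275, 0.284 and 0.284 in the ADRA2A libraries. All ADRA2A values lay above all empty-vector values, with a mean 1.34 times as high. BCL2L1 over MCL1 went from 1.92 ± 0.0796 to 1.56 ± 0.0545, again without overlap. BCL2L11 over BCL2L1 was 0.0232, 0.0184, 0.0163 and 0.0175 in the empty-vector libraries and 0.0364, 0.0322, 0.031 and 0.0398 in the ADRA2A libraries, a mean 1.85 times as high. BCL2L11 transcripts remained scarce beside those of BCL2L1 in both groups. The level of a ratio depends on the length used, and the fold between the groups does not. Per kilobase of the longest transcript, BAX over BCL2L1 was 0.195 in the empty-vector and 0.192 in the ADRA2A cells. The ratios restate the changes of the single genes and were not tested separately.

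**Figure D2:**
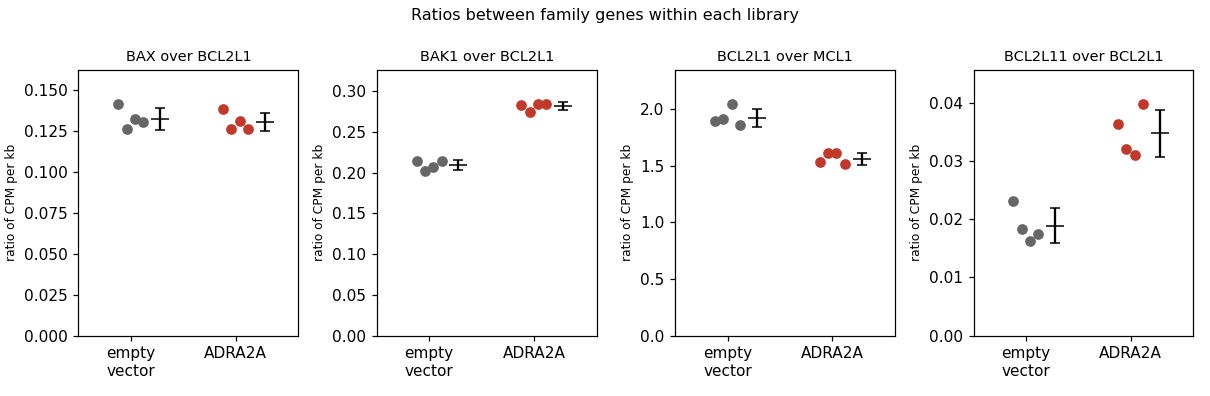
Ratios of CPM per kilobase of exon union between pairs of family genes (vertical axes, from 0) in each of the 4 empty-vector (grey) and 4 ADRA2A (red) libraries, with mean and SD in black. BAX over BCL2L1 overlapped between the groups, BAK1 over BCL2L1 and BCL2L11 over BCL2L1 were higher in all ADRA2A libraries, and BCL2L1 over MCL1 was lower.

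A further 13 genes of the family were examined by name. Of these 10 were tested, and 9 of the 10 passed, 4 higher and 5 lower, where 42.7% of all genes tested passed. Their median was -0.21 (log2 fold change). The smallest p among them belonged to BNIP3, a mitophagy receptor with an atypical BH3 region. BNIP3 (chromosome 10) had 156, 147, 174 and 161 CPM in the empty-vector libraries and 99.9, 111, 110 and 95.5 CPM in the ADRA2A libraries, a fall of every ADRA2A library below the lowest empty-vector library. BNIP3 fell by 0.62 ± 0.05 (SE) on the log2 scale (edgeR adjusted p = 1.27e-08), and its paralog BNIP3L by 0.34. BNIP3L shares 330 exonic bases with PNMA2 on the opposite strand. BCL2L13, another mitochondrial member, fell by 0.33 on the log2 scale (edgeR adjusted p = 4.93e-06). BCL2L13 and BID lie beside each other on chromosome 22, on opposite strands. BOK, an effector-like gene, fell by 0.29 and BCL2L12 by 0.34 on the log2 scale. BCL2L12 shares 734 exonic bases with IRF3 on the opposite strand, and IRF3 had a log2 fold change of -0.25.

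In the other direction BCL2L15 (chromosome 1) was at 19.7 ± 1.86 CPM in the empty-vector and 30.4 ± 0.968 CPM in the ADRA2A libraries (SD, n = 4), a rise of 0.62 ± 0.07 (SE) on the log2 scale (edgeR adjusted p = 7e-07). BCL2L14 rose by a log2 fold change of 0.83 ± 0.22 at low abundance, from 1.69 to 3.01 CPM (edgeR adjusted p = 0.00514). BMF, a BH3-only gene, had a log2 fold change of 0.32 (edgeR adjusted p = 0.0326), and its groups overlapped. The BMF call was lost without empty-vector replicate 3 (adjusted p = 0.116), empty-vector replicate 4 (0.103), ADRA2A replicate 1 (0.145) or ADRA2A replicate 4 (0.077). BCL2L2, which encodes the guardian BCL-W, had a log2 fold change of 0.16 (edgeR adjusted p = 0.0306). The BCL2L2 call was lost with upper quartile factors (adjusted p = 0.0525) and without empty-vector replicate 2 (0.116), ADRA2A replicate 2 (0.0693) or ADRA2A replicate 3 (0.0901). BCL2L2 also shares 815 exonic bases with the read-through gene BCL2L2-PABPN1 on the same strand, so its count is uncertain. BAD, the BH3-only protein that survival kinases inactivate, did not pass the test (log2 fold change -0.12, edgeR adjusted p = 0.0981), and it shares 404 exonic bases with GPR137 on the opposite strand. BCL2A1 had 0 counts in all 8 libraries, and HRK had at most 2. BCL2L10 had 0, 3, 13 and 5 counts in empty-vector replicates 1 to 4 and 0 in every ADRA2A library, too few to pass the filter.

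**Figure D3:**
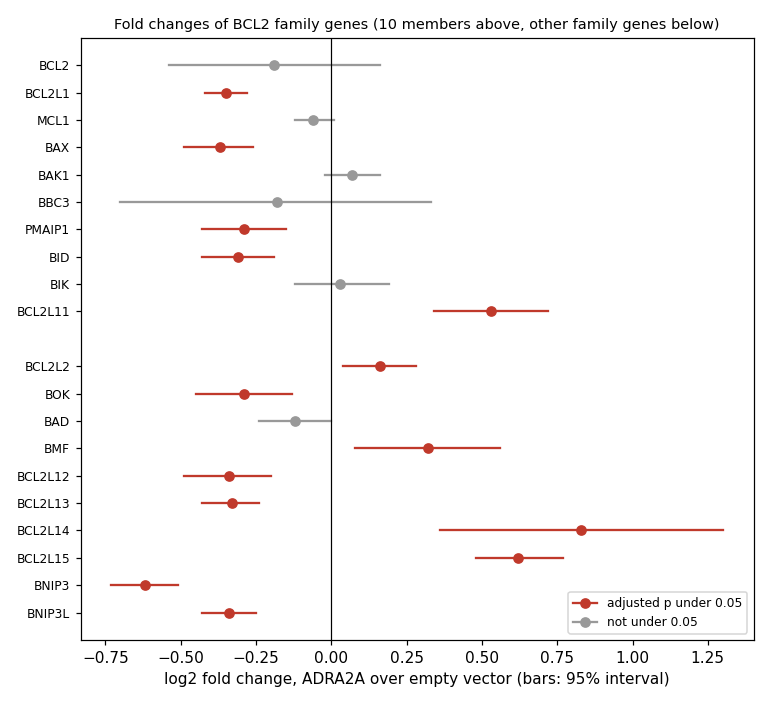
Fitted log2 fold change, ADRA2A over empty vector (horizontal axis), of the 10 genes (top block) and the 10 other tested family genes (bottom block), with 95% intervals; red marks an adjusted p under 0.05. BCL2L11 lay to the right of 0 and BCL2L1, BAX, PMAIP1 and BID to the left, and the widest intervals belonged to the scarce genes BBC3, BCL2 and BCL2L14.

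Each of the 10 genes was set beside the 25 tested genes on either side of it. The neighbours of BCL2L11 had a median log2 fold change of 0.02 and those of BAX of -0.10. For BCL2L1 the neighbours had -0.14, with 34 of 50 lower, and for BID -0.11 over the 30 neighbours that the end of chromosome 22 leaves. PMAIP1 and BCL2, both on chromosome 18, had neighbours at -0.05 and -0.04. The difference between a gene and its neighbours' median was -0.21 for BID, -0.22 for BCL2L1, -0.24 for PMAIP1, -0.27 for BAX and 0.50 for BCL2L11 (log2). These 5 genes passed the test by the size of their own change, and their neighbours' medians were smaller. A difference in the direction of that change therefore shows little. Among the genes that did not pass, the difference was -0.20 for MCL1, -0.15 for BCL2, -0.15 for BBC3, 0.11 for BIK and 0.04 for BAK1. For MCL1 the neighbours were at 0.15, with 37 of 50 higher, while MCL1 was at -0.06. The part of these shifts in the results was not tested.

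**Figure D4:**
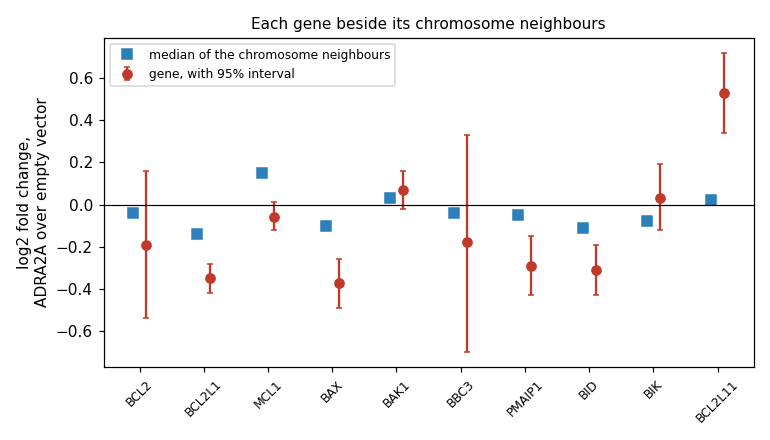
Log2 fold change, ADRA2A over empty vector (vertical axis), of each of the 10 genes with its 95% interval (red circles) and the median of its tested chromosome neighbours (blue squares). The intervals of BCL2L1, BAX, PMAIP1, BID and BCL2L11 did not reach the median of their neighbours. Nor did that of MCL1, which did not pass the test.

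The promoters below are shown because they belong to the gene that rose and to an anti-apoptotic gene and an effector that fell. They are the 250 bases before the start that RefSeq gives for each gene on GRCh38.p14, of which 8 of the 10 genes had an entry. These starts differ from the gene bounds given above. By those bounds the BCL2L11 window lies wholly inside the gene, and the BAX and BCL2L1 windows run partly into theirs. Motifs were searched on both strands: TGACGTCA as the cAMP response element and TGACG as its short form, GGGCGG as the GC box of SP1, CACGTG as the E-box, TGTTTAC as the FOXO element, CCAAT as the CCAAT box and TATAAA as the TATA box. Capitals mark each match, on whichever strand it was read.
BCL2L11, chr2:111120664-111120913, plus strand: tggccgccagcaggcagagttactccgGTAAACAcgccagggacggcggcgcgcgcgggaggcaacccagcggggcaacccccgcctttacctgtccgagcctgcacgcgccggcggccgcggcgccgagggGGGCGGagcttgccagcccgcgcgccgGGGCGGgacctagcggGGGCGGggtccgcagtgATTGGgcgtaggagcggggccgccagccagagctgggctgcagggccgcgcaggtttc
BCL2L1, chr20:31723964-31724213, minus strand: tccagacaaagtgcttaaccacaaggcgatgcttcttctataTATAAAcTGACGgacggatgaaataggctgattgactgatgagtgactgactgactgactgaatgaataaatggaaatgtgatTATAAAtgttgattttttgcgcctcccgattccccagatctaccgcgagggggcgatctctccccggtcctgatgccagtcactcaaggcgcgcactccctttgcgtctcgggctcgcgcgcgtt
BAX, chr19:48954625-48954874, plus strand: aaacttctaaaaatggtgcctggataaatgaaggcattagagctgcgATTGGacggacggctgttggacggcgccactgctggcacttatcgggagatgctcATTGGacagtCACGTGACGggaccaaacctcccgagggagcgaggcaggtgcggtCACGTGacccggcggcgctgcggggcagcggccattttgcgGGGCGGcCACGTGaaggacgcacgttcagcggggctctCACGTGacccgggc
The BCL2L11 window held 1 FOXO element, found in 2.98% of all 35116 promoters, 3 GC boxes (42.6% of promoters have any) and 1 CCAAT box (32%). BAX held 4 E-boxes, where 6.34% of promoters have any, with 2 CCAAT boxes, 1 GC box and 1 TGACG, which overlaps an E-box. BCL2L1 held 2 TATA boxes (10.7%) and 1 TGACG (21.2%) and no GC box. The full cAMP response element, found in 1.65% of promoters, was in none of the 8 windows. Windows of genes that did not pass the test held matches too, with 1 E-box in BBC3, 1 TGACG in BCL2 and 2 GC boxes in BAK1. The FOXO element and the TATA box were in no window but those of BCL2L11 and BCL2L1. These are matches of letters in a fixed window and not shown sites of binding.

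Genes downstream and around the family were counted from named lists, and each count is to be read against the 42.7% of all genes tested that passed, 21.6% as higher and 21.1% as lower. No list was tested as a set. Of 9 caspase and apoptosome genes, 4 rose and 2 fell, with a median of 0.13 (log2 fold change), against 0.00 over all genes tested. CYCS, which encodes the cytochrome c that BAX and BAK1 release, had 155, 152, 164 and 153 CPM in the empty-vector libraries and 121, 125, 125 and 112 CPM in the ADRA2A libraries, a log2 fold change of -0.37 (edgeR adjusted p = 8.44e-07). CYCS has processed pseudogenes, so its count carries some uncertainty. CASP10, an initiator caspase, rose by 0.34 on the log2 scale, and CASP6 fell by 0.23. Among 7 genes of the mitochondrial channel and its released factors, 3 were lower and 0 higher, a share of calls near the 42.7% of all genes, with a median of -0.10. They included VDAC3 and VDAC2, channel genes of the outer membrane, at -0.23 and -0.16. Of 6 tested inhibitor of apoptosis genes, XIAP rose by 0.14 and BIRC5, which encodes survivin and is also a mitotic gene, fell by 0.32 on the log2 scale. BIRC2 was at -0.12 (edgeR adjusted p = 0.0262), a call lost without empty-vector replicate 1 (0.0701), ADRA2A replicate 1 (0.0859) or ADRA2A replicate 3 (0.0781).

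In the death receptor list 5 of 10 genes were higher and 1 lower, where 21.6% and 21.1% of all genes were, with a median of 0.10. The 6 calls became 4 with upper quartile factors, with no filter on low counts, and without empty-vector replicate 1, 2 or 3 or ADRA2A replicate 3. TNFSF10, which encodes the death ligand TRAIL, had 40.1, 35, 29.9 and 33.1 CPM in the empty-vector libraries and 89.5, 75, 83.1 and 86.5 CPM in the ADRA2A libraries. Every ADRA2A library stood well above every empty-vector library, and TNFSF10 rose by 1.28 ± 0.07 (SE) on the log2 scale (edgeR adjusted p = 2.72e-11). The TNF receptor gene TNFRSF1A rose by 0.35, and the adaptor gene FADD fell by 0.30 on the log2 scale. BID, the link from this pathway to mitochondria, fell as described above.

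Of 9 transcription factor genes known to act on family members, 2 were higher and 6 lower, where 42.7% of all genes passed. TP73 and FOXO1 rose by 0.87 and 0.40 on the log2 scale. ATF4 and MYC had log2 fold changes of -0.43 and -0.33. Of 5 ubiquitin pathway genes that control MCL1 protein, the deubiquitinase gene USP9X rose by 0.29 on the log2 scale. It was the single gene of the 5 that passed, a share below the 42.7% of all genes tested. HUWE1, an MCL1 ubiquitin ligase gene named after its values were seen, did not pass (log2 fold change 0.10, edgeR adjusted p = 0.115). HUWE1 passed with no filter on low counts (adjusted p = 0.0336) and without ADRA2A replicate 3 (0.0177).

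**Figure D5:**
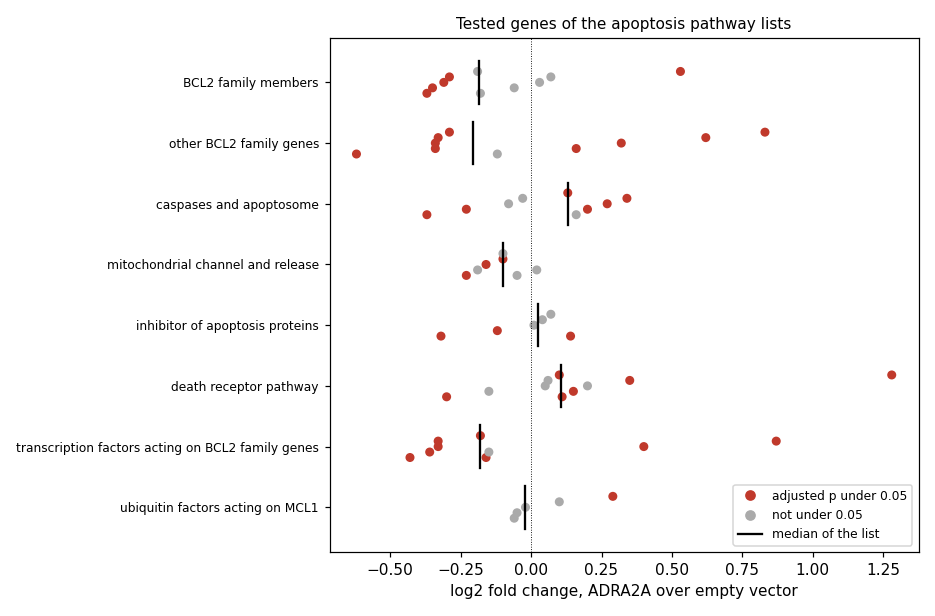
Log2 fold change, ADRA2A over empty vector (horizontal axis), of each tested gene in 8 lists (rows); red points had an adjusted p under 0.05 and black bars are list medians. TNFSF10 is the point farthest to the right, and the median of the 10 family genes is -0.19.

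The genes whose level followed a family gene most closely over the 8 libraries were sought in the 10159 genes whose mean was 10 CPM or more. For BCL2L1 they were PRKAG2, which encodes a subunit of AMP-activated kinase (Pearson r = 0.998 on log2 CPM), the sterol synthesis gene SQLE (0.997) and BCL2L13 (0.997). For BCL2L11 they were ZNF605, a zinc finger gene (0.993), THBS3, a thrombospondin gene (0.993), and PARP14, an ADP-ribosyltransferase gene (0.99). PARP14 went from 184 ± 19.7 to 261 ± 24 CPM and PRKAG2 from 50.3 ± 1.96 to 32.4 ± 2.02 CPM (SD, n = 4 each). These correlations run over libraries that differ by group, so they largely follow the difference between the groups. By rank correlation 30 genes tied at 1 with BCL2L11 and 19 with BCL2L1.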

How the data were processed

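RNA from 4 empty-vector and 4 ADRA2A samples was sequenced in bulk; per the labels the instrument was a NextSeq. The authors deposited RSEM estimated counts per gene and sample, and between 4.61% and 4.9% of a sample's values had decimals. The submitters' processing notes name cutadapt, STAR, RSEM, DESeq2 and the build hg38, with no versions. The strand setting and annotation release are not given in the sources used here. Groups came from the sample titles, and all 8 value columns were matched to a sample by the name in its title. No 2 replicates agreed within sampling noise.

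Estimated counts were rounded. filterByExpr kept 14785 of 58870 genes, which were tested with edgeR 4.0.16 (glmQLFit, glmQLFTest, TMM scaling, group as the single term, p-values adjusted over all tested genes). The procedure was checked on simulated counts. CPM are TMM-scaled, and intervals use the quasi-likelihood standard error. GENCODE 44 gave positions and lengths for 99.4% of genes, on the build the notes name. Of 2 rows named DIABLO, that with more counts was used. Alternatives were DESeq2 1.42.0, limma 3.58.1 voom, RLE and upper quartile factors, other filters, a replicate block and leaving out each library. By a rule 47 genes were named: the 10 members, ADRA2A, tested family genes, the 2 smallest p-values per direction in each list, and the most similar genes. Some of these are not reported here. The members and lists were chosen with earlier results of these data known.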

Additional observations from a re-analysis of the deposited data

Results flagged for a closer look

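A library stood apart from the other 3 of its group in 5 of the 94 groups of 4 examined (47 genes in each group), where chance gives about 5% by the same gap measure (Dixon's ratio). None of the 10 members was among them. BCL2L2 was lowest in empty-vector replicate 2, at 40.7 CPM. VDAC2 and VDAC3 were lowest in ADRA2A replicate 4, at 168 and 98.5 CPM. TIGAR was lowest in empty-vector replicate 4, at 4.58 CPM, and highest of its group in ADRA2A replicate 3, at 3.61 CPM.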

How the results depend on the processing

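The same 5 members passed the test in the same directions under all 15 alternatives. Over all genes 6314 were called; settings that kept every library called from 5823 (with DESeq2) to 6550 (without a filter), and leaving out 1 library called 5703 to 6042. With upper quartile factors 2955 were higher and 3412 lower, where TMM gave 3195 and 3119. With the replicate number as a replicate block 6400 genes and 5 members were called, and HUWE1 passed as well (adjusted p = 0.0253). The numbers only name the samples: same-numbered libraries had deviations that correlated between -0.0421 and 0.0701. Of 149 refits of the 10 members 147 kept direction and side of the threshold. Exceptions were BBC3, which lay between -0.31 and 0.06 (log2) when 1 library was left out and was 0.06 without empty-vector replicate 2, and BIK, between -0.01 and 0.09 and at -0.01 without empty-vector replicate 1. Neither passed the test in any refit, and the cause was not tested. BBC3 was not tested at a mean of at least 50 counts. With 10 neighbours on each side the median beside BAK1 was -0.13 in place of 0.03. Of 554 refits of the other 37 named genes 543 kept direction and call and 11 lost the call. BCL2 and BBC3 had the fewest counts and the widest intervals of the 10.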
